A study of Mus musculus with 7 samples.

Results

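The genes described here handle the short-chain fatty acids acetate and propionate inside the cell and carry them, with lactate, pyruvate and ketone bodies, across its membrane. They were chosen by name: 3 acyl-CoA synthetases for short-chain fatty acids (Acss1, Acss2 and Acss3), 4 monocarboxylate carriers (Slc16a1, Slc16a3, Slc16a7 and Slc5a8) and the 2 subunits of propionyl-CoA carboxylase (Pcca and Pccb). All 9 were found among the 57010 gene identifiers of the count table, and 8 of them passed the filter on low counts. Their mRNA was compared between mice lacking the short-chain fatty acid receptor FFA2 in adipocytes and floxed littermates, to ask whether genes for the uptake and use of the receptor's ligands differ when the receptor is gone.

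RNA-Seq was performed on mature white adipocytes released by collagenase from the perigonadal fat of male mice aged 20 weeks. The control group, FFA2 fl/fl, held 3 libraries from mice with both Ffar2 alleles floxed. The Adipoq-F2-KO group held 4 libraries from mice with the same floxed alleles plus an adiponectin-Cre transgene, whose promoter is active in adipocytes. Mice of both genotypes were co-housed littermates on standard chow and received no treatment, so the floxed alleles and the diet were shared by both groups. Cells other than adipocytes keep an intact floxed gene in this model. The p-values measure the spread between these mice.

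Acetate enters metabolism once it is joined to coenzyme A, in the cytosol and nucleus by Acss2 and in mitochondria by Acss1, while Acss3 is a mitochondrial enzyme that prefers propionate. Propionyl-CoA, which also arises from the breakdown of branched-chain amino acids, is carboxylated by the biotin enzyme propionyl-CoA carboxylase and then converted to succinyl-CoA by a vitamin B12-dependent mutase. The Slc16 carriers move monocarboxylates together with protons: Slc16a1 encodes MCT1, Slc16a3 encodes MCT4, often described as a lactate exporter of glycolytic cells, and Slc16a7 encodes MCT2, which binds pyruvate and lactate with high affinity. Slc5a8 encodes a sodium-coupled carrier best known from the colon and kidney. In fat, adipocytes release much of the lactate they make from glucose and use acetyl-CoA to build fatty acids.

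Among the members, Slc16a1 alone passed the edgeR test. It was 1.55-fold higher in Adipoq-F2-KO adipocytes. Slc16a3 had the larger difference, 2.20-fold higher, but at a low level and with an adjusted p of 0.120 (edgeR), which did not pass. The third Slc16 member, all 3 synthetases and both carboxylase subunits had log2 fold changes between -0.23 and -0.01, and none of them passed in edgeR, DESeq2 or limma voom or had an unadjusted p under 0.05. Because Slc16a1 and Slc16a3 were the members with higher values, the sequences around their start sites are shown first. The windows are 300 bases long, from 250 bases before to 50 after the start site, taken from RefSeq on GRCm38.p6 by gene symbol, which matched 7 of the 9 members.

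Slc16a1 (chr3:104638414-104638713, + strand) and Slc16a3 (chr11:120948817-120949116, + strand) are printed 5′ to 3′, with capitals marking ACGTG, the core of hypoxia response elements, and GGGCGG, the GC box, on either strand:
Slc16a1: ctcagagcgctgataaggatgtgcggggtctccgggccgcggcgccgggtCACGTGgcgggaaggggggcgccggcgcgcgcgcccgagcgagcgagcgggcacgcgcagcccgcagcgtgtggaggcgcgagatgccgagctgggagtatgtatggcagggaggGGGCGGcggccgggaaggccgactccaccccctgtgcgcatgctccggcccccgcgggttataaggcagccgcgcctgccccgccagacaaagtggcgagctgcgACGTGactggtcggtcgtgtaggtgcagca
Slc16a3: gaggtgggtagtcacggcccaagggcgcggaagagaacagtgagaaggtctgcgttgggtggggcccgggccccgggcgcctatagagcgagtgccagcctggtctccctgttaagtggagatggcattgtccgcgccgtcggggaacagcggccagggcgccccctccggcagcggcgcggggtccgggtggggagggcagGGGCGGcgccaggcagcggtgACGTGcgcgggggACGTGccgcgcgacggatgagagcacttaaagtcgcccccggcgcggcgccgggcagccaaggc
Both windows were rich in G and C, at 73.7% for Slc16a1 and 73.3% for Slc16a3. In the Slc16a1 window, ACGTG matched at 3 positions. The first 2 are the overlapping strands of a single CACGTG, an E-box, 200 bases before the start site, and the third lies 20 bases after it. In the Slc16a3 window ACGTG matched 27 and 14 bases before the start site. A GC box lay 85 bases before the Slc16a1 start and 48 bases before the Slc16a3 start. Of 32851 promoter windows of the same length, 19.6% held ACGTG, 7.15% held CACGTG and 35.7% held GGGCGG, counted on both strands, so the GC box is common. None of the windows of the other 5 matched members held ACGTG. Acss3 and Slc16a7 had no window, so Slc16a7, the remaining Slc16 member, could not be compared. These matches describe letters in the windows and were not tied to any measurement of binding.

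The libraries held between 30478997 and 39992605 counts. Most low counts were even (85.5% to 88.8% of counts from 1 to 49), as when both mates of a pair are counted, so 0 counts in a library allow a level of up to 0.150 to 0.197 CPM (the count divided by the library's normalized total, in the usual units) at 3 fragments, and these limits cover counting error alone. Ffar2, the deleted gene, had 37.5, 33.9 and 32.0 CPM in FFA2 fl/fl and 1.68, 1.15, 1.33 and 2.58 CPM in Adipoq-F2-KO, a log2 fold change of -4.36 (SE 0.22, edgeR adjusted p = 7.97e-06), which matches the labels. The adipocyte markers were abundant in all libraries, with Adipoq between 2419 and 3762 CPM. In the edgeR quasi-likelihood test, 173 of 17039 genes passed an adjusted p of 0.05 (1.02%), 136 higher and 37 lower in Adipoq-F2-KO. These numbers depend on single libraries of both genotypes: without FFA2 fl/fl replicate 1, 0 genes were called higher and 1 lower. Without FFA2 fl/fl replicate 3, 0 were called higher and 5 lower, and without FFA2 fl/fl replicate 2, 35 and 6. Leaving out Adipoq-F2-KO replicate 2 gave 8 higher and 3 lower, and leaving out Adipoq-F2-KO replicate 3 gave 13 and 7. Leaving out Adipoq-F2-KO replicate 1 gave 151 and 27, and Adipoq-F2-KO replicate 4 136 and 30. Libraries of the 2 genotypes did not overlap, with Adipoq-F2-KO higher, for 8.86% of tested genes, and with Adipoq-F2-KO lower for 8.72%. The members' counts below are read against these shares. The median log2 fold change of all tested genes was 0.0037.

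**Figure D1:**
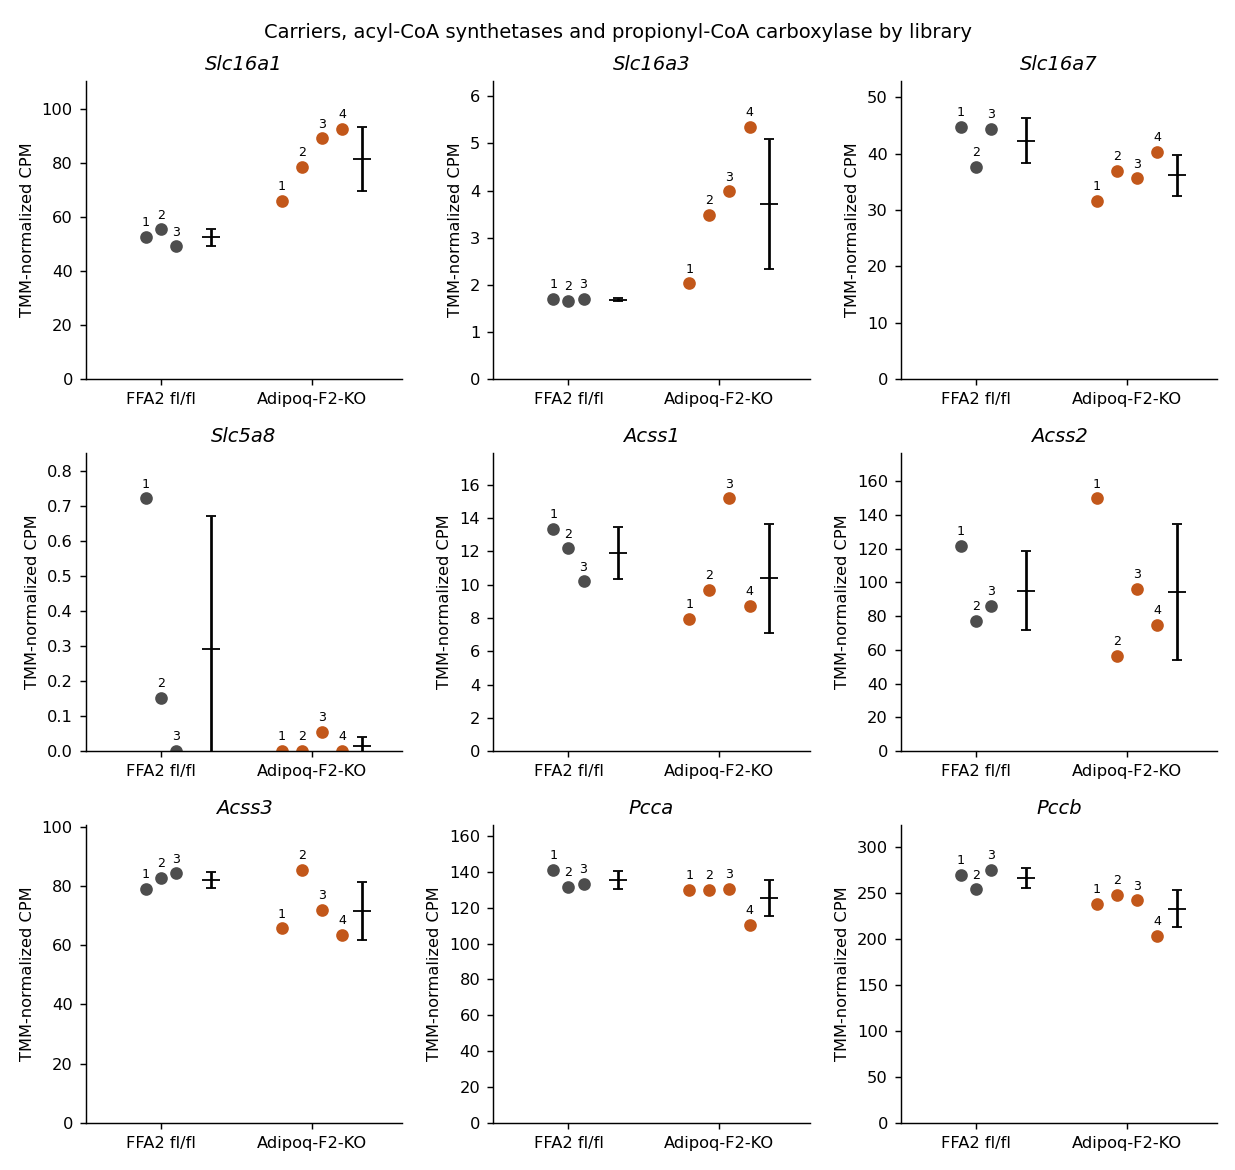
Levels of the 9 members in TMM-normalized CPM (vertical axes, each starting at 0) in 3 FFA2 fl/fl (gray) and 4 Adipoq-F2-KO (orange) libraries, numbered by replicate, with the mean and SD beside each group (the lower SD bar of Slc5a8 ends at 0). All 4 Adipoq-F2-KO libraries lie above the controls for Slc16a1 and Slc16a3, while those of Acss2 span the controls from 56.4 to 149.9 CPM.

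Slc16a1, the MCT1 gene, had 52.8, 55.5 and 49.2 CPM in FFA2 fl/fl and 66.0, 78.6, 89.2 and 92.6 CPM in Adipoq-F2-KO. The lowest Adipoq-F2-KO library, replicate 1, lay above the highest control, so the groups did not overlap. Means were 52.5 ± 3.15 CPM (SD, n = 3) and 81.6 ± 12.0 CPM (SD, n = 4), and the log2 fold change was 0.64 (SE 0.12, 95% interval 0.37 to 0.90, edgeR adjusted p = 0.0406). The exact permutation test on the same values, two-sided, gave p = 0.0571, where the smallest p this design allows is 0.0286. The gene lies at chr3:104545984-104565778 on the + strand in the deposited coordinates. With single libraries left out, the log2 fold change stayed between 0.57 and 0.73. Slc16a1 remained called without Adipoq-F2-KO replicate 1 (edgeR adjusted p = 0.0181) and without Adipoq-F2-KO replicate 4 (edgeR adjusted p = 0.0462). The call was lost in the other 5 cases, where the adjusted p (edgeR) was 0.207 without FFA2 fl/fl replicate 1, 0.0738 without FFA2 fl/fl replicate 2, 0.173 without FFA2 fl/fl replicate 3, 0.0672 without Adipoq-F2-KO replicate 2 and 0.0740 without Adipoq-F2-KO replicate 3.

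Slc16a3, the MCT4 gene, was scarce, with 58 to 66 counts in a control library and 81 to 158 in an Adipoq-F2-KO library. Its levels were 1.71, 1.66 and 1.70 CPM in FFA2 fl/fl and 2.03, 3.49, 3.98 and 5.36 CPM in Adipoq-F2-KO. The 3 controls were nearly equal and all 4 Adipoq-F2-KO libraries were above them, replicate 1 by the least. The log2 fold change was 1.13 (SE 0.33, 95% interval 0.40 to 1.87, edgeR adjusted p = 0.120), which did not pass. DESeq2 gave an adjusted p of 0.0297 for the same gene. DESeq2 passed 5.77% of all tested genes. Exons of Slc16a3 share 306 bases (5.75% of its exon length) with Csnk1d on the opposite strand, which had 28132 counts over the 7 libraries against 686 for Slc16a3, and how reads there were assigned is not given in the sources used here.

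Slc16a7, the MCT2 gene, had 44.8, 37.7 and 44.4 CPM in FFA2 fl/fl and 31.6, 36.9, 35.6 and 40.4 CPM in Adipoq-F2-KO. The groups overlapped, with the highest Adipoq-F2-KO library (replicate 4) above the lowest control (replicate 2), with a log2 fold change of -0.23 (95% interval -0.47 to 0.02, edgeR adjusted p = 0.311). Within a library, Slc16a1 was 3.35 ± 0.518 times as abundant as Slc16a7 per exon length in FFA2 fl/fl (SD, n = 3) and 6.03 ± 0.506 times in Adipoq-F2-KO (SD, n = 4). The ratio did not overlap between genotypes, and it was chosen after its values were seen.

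Slc5a8, the sodium-coupled carrier, was the member left out by the filter. It had 27, 6 and 0 counts in FFA2 fl/fl and 0, 0, 2 and 0 counts in Adipoq-F2-KO. Only FFA2 fl/fl replicate 1, at 0.721 CPM, had more than the 6 counts (3 fragments) that a count of 0 allows, so a difference between genotypes was not detectable at this depth (exact permutation test, two-sided, p = 0.143).

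Among the synthetases, Acss2, the cytosolic enzyme, varied most between mice of the same genotype. It had 121.6, 77.3 and 86.1 CPM in FFA2 fl/fl and 149.9, 56.4, 96.0 and 74.9 CPM in Adipoq-F2-KO. Both the highest and the lowest value came from Adipoq-F2-KO, and the controls lay between them. The log2 fold change was -0.01 (SE 0.27, 95% interval -0.61 to 0.59, edgeR adjusted p = 0.991). Its sign changed with the libraries, from -0.33 without Adipoq-F2-KO replicate 1 to 0.21 without FFA2 fl/fl replicate 1.

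Acss1, the mitochondrial acetate enzyme, had 13.3, 12.2 and 10.2 CPM in FFA2 fl/fl and 7.93, 9.66, 15.2 and 8.72 CPM in Adipoq-F2-KO. Replicate 3 of Adipoq-F2-KO was the highest of all 7 libraries and the other 3 were below every control, for a log2 fold change of -0.20 (SE 0.22, 95% interval -0.67 to 0.28, edgeR adjusted p = 0.677). Without Adipoq-F2-KO replicate 3 it was -0.44, with an adjusted p of 0.188.

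Acss3, the propionate-preferring enzyme, had 78.9, 82.7 and 84.2 CPM in FFA2 fl/fl and 65.6, 85.3, 71.8 and 63.5 CPM in Adipoq-F2-KO. Here replicate 2 of Adipoq-F2-KO was the highest library and the other 3 were below every control, for a log2 fold change of -0.20 (95% interval -0.44 to 0.04, edgeR adjusted p = 0.376). Exons of Ppfia2 on the opposite strand cover 33.9% of the Acss3 exon length, but Ppfia2 had 130 counts over the 7 libraries against 19002 for Acss3. Shorter overlaps with genes on the opposite strand cover 3.89% of the Acss2 exon length (Gss) and 4.63% of that of Pcca (Ggact).

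The carboxylase subunits were the most abundant members per length. Pcca encodes the subunit that carries biotin and Pccb the subunit that transfers the carboxyl group to propionyl-CoA. Pccb had 269.4, 253.7 and 274.5 CPM in FFA2 fl/fl and 238.1, 248.1, 241.7 and 203.5 CPM in Adipoq-F2-KO. All 4 Adipoq-F2-KO libraries were below the controls, at a log2 fold change of -0.19 (95% interval -0.40 to 0.01, edgeR adjusted p = 0.310), which did not pass.

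Pcca had 140.9, 131.5 and 133.3 CPM in FFA2 fl/fl and 130.1, 129.9, 130.5 and 110.2 CPM in Adipoq-F2-KO. Its groups did not overlap either, but 3 of the 4 Adipoq-F2-KO libraries lay within 2 CPM of the lowest control, and the log2 fold change was -0.11 (95% interval -0.31 to 0.09, edgeR adjusted p = 0.555). Without Adipoq-F2-KO replicate 4 it was -0.055 (edgeR adjusted p = 0.797). Within a library the level of Pcca per exon length was 0.271 ± 0.0109 of that of Pccb in FFA2 fl/fl (SD, n = 3) and 0.286 ± 0.00526 in Adipoq-F2-KO (SD, n = 4), and these ratios did not overlap, with the lowest in Adipoq-F2-KO at 0.279 and the highest control at 0.278.

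Counted together, 2 of the 8 tested members were higher and 6 lower in Adipoq-F2-KO. Their median log2 fold change was -0.15, against 0.0037 over all tested genes. The libraries did not overlap for 2 members higher (Slc16a1 and Slc16a3) and 2 lower (Pcca and Pccb), against 8.86% and 8.72% of all tested genes. EdgeR called 1 member, against 1.02% of all tested genes.

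Levels per exon length (RPKM, from the normalized counts and the deposited exon lengths) ordered the members over all 7 libraries. Pccb came first, at a mean of 89.1 RPKM, and Pcca second, at 24.9 RPKM. Slc16a1 followed at 15.6 RPKM, with a range of 11.1 to 20.9 RPKM that ended just below the lowest library of Pcca (21.2 RPKM). In FFA2 fl/fl the mean of Slc16a1, 11.9 RPKM, was not separated from that of Acss3, 11.4 RPKM, which was the higher of the 2 in replicate 3. Acss2 was just above Slc16a1 in FFA2 fl/fl replicate 1, at 11.97 against 11.93 RPKM. In Adipoq-F2-KO the means of Slc16a1 and Acss3 were 18.4 and 9.94 RPKM. Acss3 at 10.6 RPKM and Acss2 at 9.31 RPKM were not separated, since the libraries of Acss2 ran from 5.55 to 14.7 RPKM. Slc16a7 and Acss2 have the longest deposited exon lengths of the members, 11839 and 10163 bases, and their place in this order and their ratios to other genes depend on those lengths. Slc16a7 at 3.28 RPKM and Acss1 at 2.67 RPKM overlapped as well. Slc16a3 at 0.536 RPKM and Slc5a8 at 0.025 RPKM closed the order. Slc16a1 was therefore the leading carrier of the 4 members by level in both genotypes, and the Slc16a3 level was 0.0269 ± 0.00189 of that of Slc16a1 in FFA2 fl/fl (SD, n = 3) and 0.0370 ± 0.00920 in Adipoq-F2-KO (SD, n = 4), which overlapped.

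The remaining members of the carrier family and their chaperones were examined as a list of 14 genes, 12 of which were tested. Of these, 8 were higher and 4 lower in Adipoq-F2-KO, and the median log2 fold change was 0.39. The higher genes include the scarce Slc16a4 (2 to 14 counts in FFA2 fl/fl, 10 to 34 in Adipoq-F2-KO) and Slc16a8 (2 to 6 and 8 to 20). Both passed the filter on low counts through their Adipoq-F2-KO libraries, so their direction is not support for a difference. None was called by edgeR or limma voom. DESeq2 called 3, Slc16a10, Slc16a11 and Slc16a13, where it passed 5.77% of all tested genes. Libraries did not overlap for 4 genes higher, the scarce Slc16a8 among them, and 1 lower, against 8.86% and 8.72% of all tested genes. Slc16a11, a carrier known from studies of type 2 diabetes risk, had 3.77, 5.82 and 4.25 CPM in FFA2 fl/fl and 12.4, 8.90, 11.2 and 27.9 CPM in Adipoq-F2-KO. All 4 Adipoq-F2-KO libraries were above the controls and replicate 4 was the highest. The log2 fold change was 1.71 (SE 0.36, edgeR adjusted p = 0.0521), just outside the threshold. Without Adipoq-F2-KO replicate 4 it was 1.23 with an adjusted p of 0.0317. That was the 1 fit of 7 with a library left out that passed, and the adjusted p (edgeR) rose to 0.255 among the others.

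Slc16a13, named after its values were seen, is the neighbor of Slc16a11: the 2 genes face each other on chromosome 11 with 371 bases between their ends in the deposited coordinates. It had 4.27, 6.25 and 4.01 CPM in FFA2 fl/fl and 8.93, 6.41, 10.1 and 23.7 CPM in Adipoq-F2-KO, where replicate 4 again was highest and replicate 2 nearly level with a control. The log2 fold change was 1.34 (SE 0.39, edgeR adjusted p = 0.118). Slc16a10, which carries aromatic amino acids, went the other way, with 74.0, 88.0 and 77.4 CPM in FFA2 fl/fl and 44.8, 60.1, 62.4 and 56.9 CPM in Adipoq-F2-KO. Its groups did not overlap, and the log2 fold change was -0.51 (SE 0.12, edgeR adjusted p = 0.0675). Bsg, or basigin, the chaperone that brings MCT1 and MCT4 to the membrane, was the most abundant gene of this list and had a log2 fold change of -0.20 (edgeR adjusted p = 0.464), with 219.0 to 342.3 CPM in Adipoq-F2-KO around the controls' 315.1 to 329.9 CPM.

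**Figure D2:**
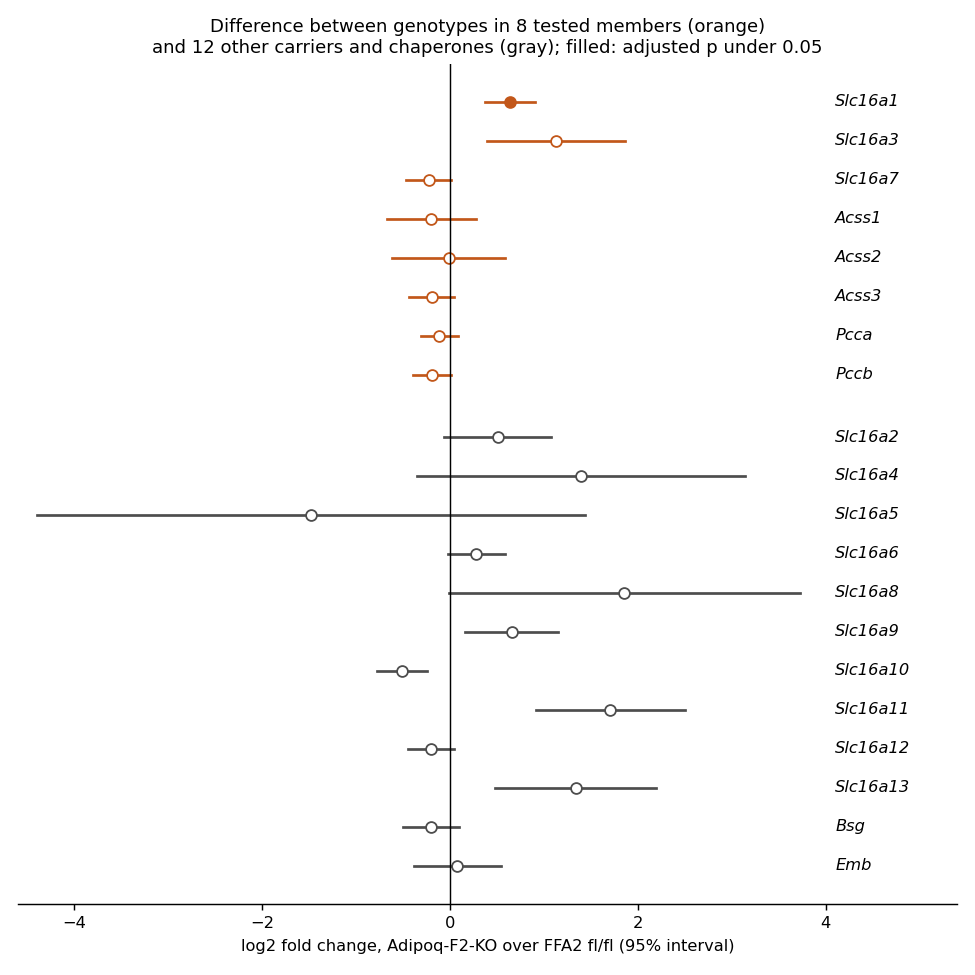
Log2 fold change of Adipoq-F2-KO over FFA2 fl/fl (horizontal axis) with its 95% interval for 8 tested members (orange) and 12 other tested carriers and chaperones (gray); filled points passed an adjusted p of 0.05. Slc16a1 is the only filled point, and the intervals of Slc16a3, Slc16a9, Slc16a11, Slc16a13 and, below 0, Slc16a10 also leave out 0 before adjustment.

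The list of 9 genes from propionyl-CoA to succinyl-CoA and its cofactors holds Mcee, the mutase and its B12 enzymes. It also holds 2 enzymes that handle biotin (Hlcs and Btd) and malonyl-CoA decarboxylase (Mlycd). In it 8 were lower and 1 higher, with a median of -0.14. None was called by edgeR or limma voom. DESeq2 called 1, Mmab (DESeq2 adjusted p = 0.0492), where it passed 5.77% of all tested genes. Mmab, which makes the B12 form that the mutase needs, had the smallest p, with 40.1, 40.7 and 39.0 CPM in FFA2 fl/fl and 35.05, 27.9, 32.7 and 27.7 CPM in Adipoq-F2-KO (log2 fold change -0.37, SE 0.11, edgeR adjusted p = 0.119). Its groups did not overlap. Mmachc, an early enzyme of B12 processing, had a log2 fold change of -0.32 (edgeR adjusted p = 0.233). Mmut, the mutase itself and the most abundant of the list, had one of -0.13 (edgeR adjusted p = 0.473).

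The amino acid breakdown list holds enzymes on the path from valine and isoleucine to propionyl-CoA, and Bckdk and Ppm1k, which regulate that path. All 16 genes tested were lower, with a median of -0.14. Since regulators are included, this shared direction of mRNA does not give a direction for the pathway. EdgeR and limma voom called none of the 16. DESeq2 called 1, Bcat2 (DESeq2 adjusted p = 0.0338), where it passed 5.77% of all tested genes. Libraries did not overlap for 6 of the 16, against 8.72% of all tested genes in that direction. Bcat2, the mitochondrial transaminase that starts the pathway, had 190.6, 200.9 and 219.6 CPM in FFA2 fl/fl and 167.8, 166.0, 174.4 and 159.9 CPM in Adipoq-F2-KO (log2 fold change -0.29, SE 0.08, edgeR adjusted p = 0.123). Bckdha, a subunit of the branched-chain keto acid dehydrogenase, had a log2 fold change of -0.27 (edgeR adjusted p = 0.175). Aldh6a1, which releases propionyl-CoA from valine, was the most abundant, at -0.14 (edgeR adjusted p = 0.473).

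The 5 other biotin carboxylases were all lower, with a median of -0.24. None of these was called by edgeR or limma voom. DESeq2 called 1, Acacb (DESeq2 adjusted p = 0.00245), where it passed 5.77% of all tested genes. Acacb, the acetyl-CoA carboxylase of the mitochondrial surface, had 329.4, 263.2 and 273.8 CPM in FFA2 fl/fl and 239.4, 196.0, 169.1 and 157.4 CPM in Adipoq-F2-KO. The groups did not overlap, and the log2 fold change was -0.60 (SE 0.14, edgeR adjusted p = 0.0675). Without Adipoq-F2-KO replicate 1 it was -0.73, with an adjusted p of 0.0323. That was the 1 fit of 7 with a library left out that passed. Among the others the adjusted p (edgeR) rose to 0.304, and the smallest log2 fold change was -0.50. Mccc2, of leucine breakdown, was at -0.20 (edgeR adjusted p = 0.256), and Pc, pyruvate carboxylase and the most abundant, at -0.24 (edgeR adjusted p = 0.287).

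EdgeR called 2 of the 73 tested genes of the 7 lists, both lower, while DESeq2 called 8, 2 of them higher (Slc16a11 and Slc16a13). Over all tested genes, edgeR called 1.02% and DESeq2 5.77%. Acsm5, a mitochondrial synthetase for medium-chain acids, had 29.9, 27.6 and 29.6 CPM in FFA2 fl/fl and 15.5, 21.3, 21.1 and 16.6 CPM in Adipoq-F2-KO. Acsm5 fell by 0.64 on the log2 scale (SE 0.13, edgeR adjusted p = 0.04995), at the edge of the threshold. Pdk2, a kinase that switches pyruvate dehydrogenase off, had 218.9, 199.8 and 225.7 CPM in FFA2 fl/fl and 145.6, 164.4, 166.7 and 131.6 CPM in Adipoq-F2-KO. It fell by 0.50 on the log2 scale (SE 0.10, edgeR adjusted p = 0.0484). Neither gene's libraries overlapped between genotypes. Leaving out any single library ended the call of Acsm5, with adjusted p from 0.0639 to 0.241, and leaving out any except Adipoq-F2-KO replicate 4 ended that of Pdk2, with adjusted p from 0.0680 to 0.241. With DESeq2's size factors in edgeR, the adjusted p was 0.0507 for Acsm5 and 0.0503 for Pdk2.

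In the same lists as those 2 genes, 5 of 6 tested synthetases and transferases were lower (median -0.24) and 13 of 16 tested genes of lactate, pyruvate and ketone body use were lower (median -0.17). Acsf3, which activates malonate in mitochondria, had a log2 fold change of -0.34 (edgeR adjusted p = 0.146), and Oxct1, which activates ketone bodies, one of -0.08 (edgeR adjusted p = 0.713). Ldhd, a D-lactate dehydrogenase, was at -0.39 (edgeR adjusted p = 0.159). Ldha, which makes the lactate that MCT4 and MCT1 carry and was the most abundant gene of its list, had 789.7, 719.5 and 744.4 CPM in FFA2 fl/fl and 802.5, 641.6, 815.3 and 633.7 CPM in Adipoq-F2-KO, a log2 fold change of -0.05 (edgeR adjusted p = 0.843). Its groups overlapped, unlike those of Slc16a1.

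**Figure D3:**
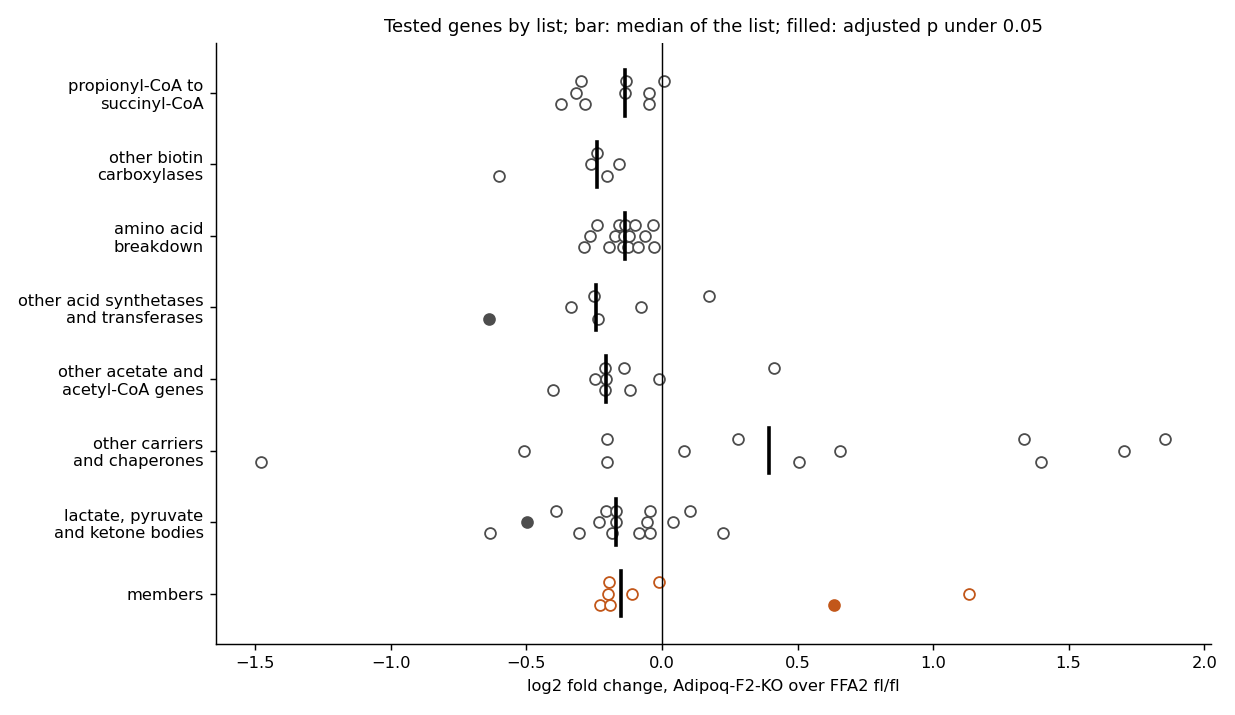
Log2 fold change of Adipoq-F2-KO over FFA2 fl/fl (horizontal axis) of each tested gene in the 7 lists (gray) and of the members (orange), with the median of each list as a bar and filled points for an adjusted p under 0.05. The medians of 6 lists lie between -0.24 and -0.14, and that of the other carriers and chaperones at 0.39. That last list includes the scarce Slc16a4 and Slc16a8.

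Over the 7 lists, 14 of 73 tested genes were higher and 59 lower, against 49.6% lower over all tested genes. Libraries did not overlap for 5 genes higher, the scarce Slc16a8 among them, and 20 lower of the 73, against 8.86% and 8.72% of all tested genes. The list of other acetate and cytosolic acetyl-CoA genes had 8 of 9 lower (median -0.21), none called by edgeR, DESeq2 or limma voom. It held the exception Sirt1, a deacetylase known to activate the cytosolic acetate enzyme Acss2. Sirt1 had 27.3, 33.5 and 34.2 CPM in FFA2 fl/fl and 37.4, 38.0, 42.9 and 50.7 CPM in Adipoq-F2-KO, with no overlap and a log2 fold change of 0.41 (SE 0.13, edgeR adjusted p = 0.144). Crat, which exchanges acetyl groups between coenzyme A and carnitine, was at -0.21 (edgeR adjusted p = 0.246).

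The variation of Acss2 between mice was shared by Acly, ATP citrate lyase, which makes cytosolic acetyl-CoA from citrate and is the most abundant gene of that list. Acly had 877.3, 414.9 and 434.6 CPM in FFA2 fl/fl and 835.2, 267.8, 419.5 and 471.9 CPM in Adipoq-F2-KO (log2 fold change -0.21, SE 0.34, edgeR adjusted p = 0.796). The same libraries, replicate 1 of each genotype, were the 2 highest for both Acss2 and Acly, and Adipoq-F2-KO replicate 2 was the lowest for both. Acaca, which makes malonyl-CoA for fatty acid synthesis, and Slc25a1, the mitochondrial citrate carrier, were highest in those 2 libraries and lowest in Adipoq-F2-KO replicate 2 as well. These 2 genes were set beside Acss2 after their values were seen.

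**Figure D4:**
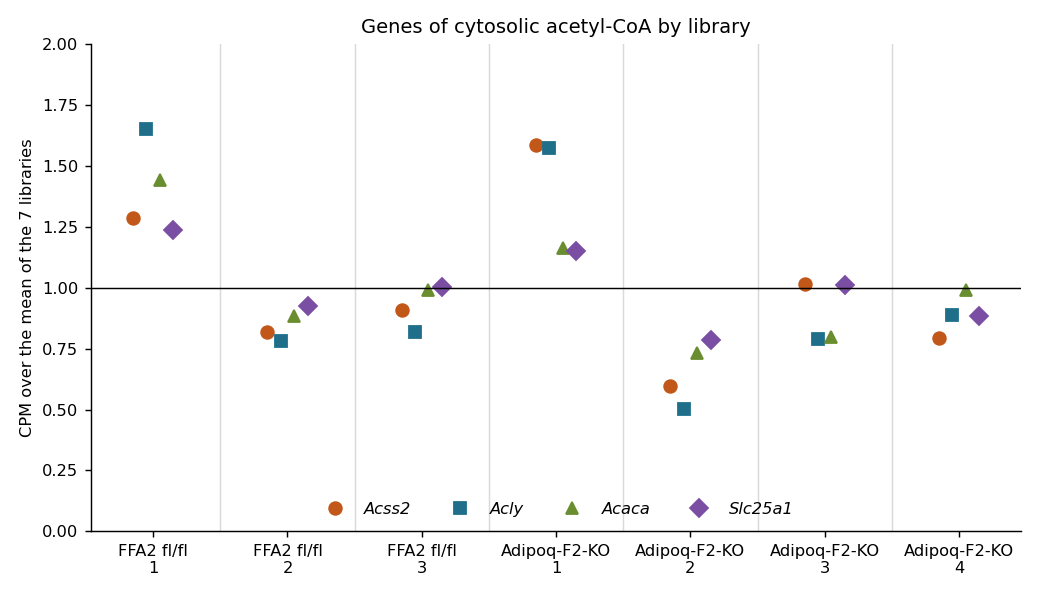
CPM of Acss2, Acly, Acaca and Slc25a1 in each library, divided by the gene's mean over the 7 libraries (vertical axis; the line is at 1). Replicate 1 of each genotype lies above 1 for all 4 genes, and Adipoq-F2-KO replicate 2 lies below 1 for all 4.

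Among 8564 genes compared over the 7 libraries, those with log2 CPM most like Slc16a1 were Rassf1 (r = 0.985), Ccl7 (r = 0.984) and Tpp2 (r = 0.983), given as a description since all 7 points carry the difference between genotypes. Ccl7, a chemokine that attracts monocytes, had 36.4, 40.3 and 37.5 CPM in FFA2 fl/fl and 47.6, 70.5, 75.0 and 79.1 CPM in Adipoq-F2-KO. It rose by a log2 fold change of 0.84 (edgeR adjusted p = 0.0396), a call lost without any of the 3 controls or without Adipoq-F2-KO replicate 2 or 3, with adjusted p from 0.0677 to 0.207. Rassf1 was at 0.32 (edgeR adjusted p = 0.147) and Tpp2 at 0.34 (edgeR adjusted p = 0.117), and neither passed in edgeR, while DESeq2 called Tpp2.

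Summed markers of several other cell types were set beside these results. Over all tested genes, edgeR called 1.02% and DESeq2 5.77%. All 12 macrophage markers were higher (median 0.67), 2 of them called by edgeR and 9 by DESeq2, and their summed level was 503 to 658 CPM in FFA2 fl/fl and 746 to 928 CPM in Adipoq-F2-KO, with Cd74 the most abundant. All 8 endothelial markers were higher (median 0.47), none called by edgeR and 3 by DESeq2. Their sums were 963 to 1286 and 1348 to 2146 CPM, with Cdh5 the most abundant. Fibroblast progenitor markers summed to 816 to 1092 CPM against 1160 to 1352 CPM, with 7 of 8 higher and Col3a1 leading. Erythroid markers summed to 97.6 to 223 CPM against 209 to 372 CPM, with all 5 tested higher, led by Hbb-bs. In both lists edgeR, DESeq2 and limma voom called none. All 10 adipocyte markers were lower (median -0.28), none called by edgeR and 1 by DESeq2 (Lipe). Their sums were 44822 to 49760 CPM in FFA2 fl/fl and 34314 to 45169 CPM in Adipoq-F2-KO, with Cfd the most abundant. Each marker of these 5 lists had counts in at least 1 library. Neutrophil markers, led by S100a8, overlapped, at 2.55 to 3.95 and 2.46 to 5.01 CPM. Mitochondrial genes took 4.41% to 5.77% of counts in FFA2 fl/fl and 6.61% to 10.3% in Adipoq-F2-KO. The part of these differences in the values of Slc16a1, Slc16a3 and the lower lists was not tested, and in such samples fewer cells of a type and less RNA per cell cannot be told apart. A setting added after the data were seen left out mitochondrial genes and the single identifier of most uneven share, which has no symbol. Slc16a1 then had a log2 fold change of 0.64 (edgeR adjusted p = 0.0400). The setting hardly moved the other members either (Pccb -0.1912 before and -0.1905 after). It therefore does not test the part of the mitochondrial share in these values.

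**Figure D5:**
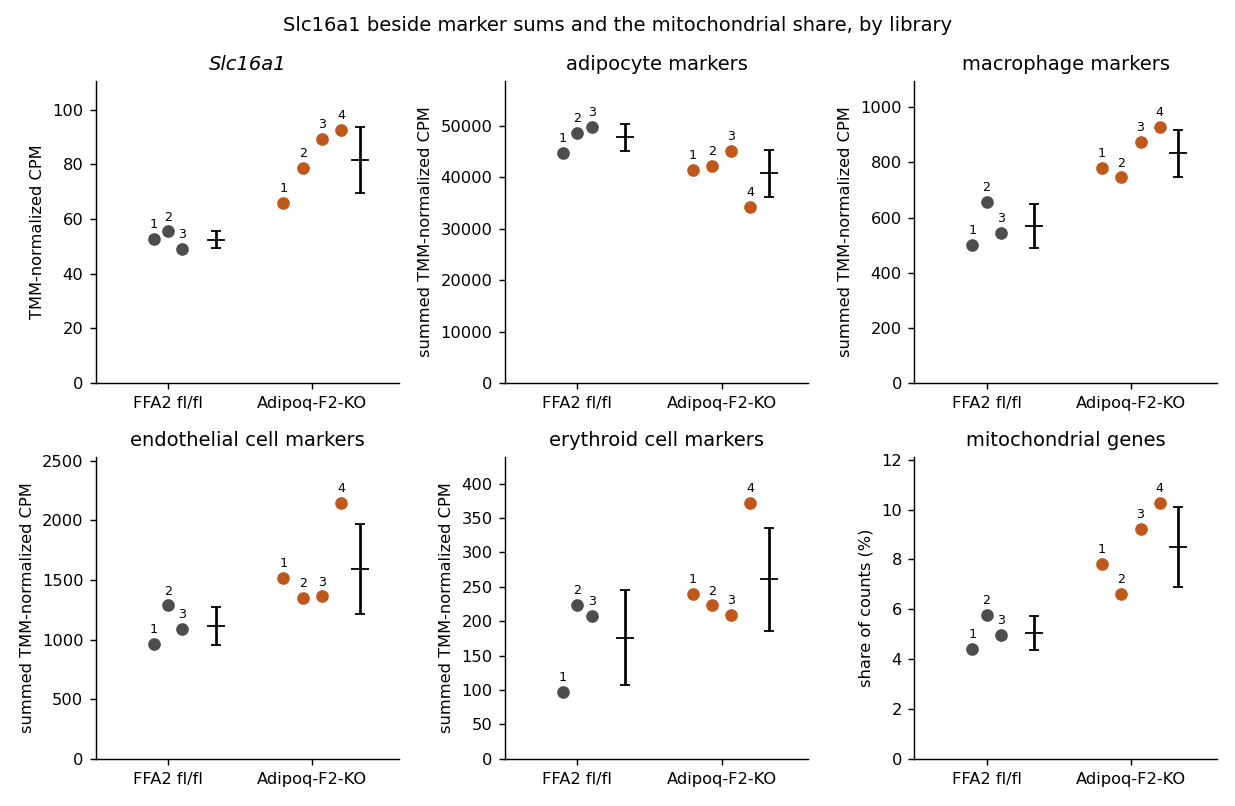
Slc16a1 in TMM-normalized CPM, summed CPM of 4 marker lists and the share of counts from mitochondrial genes (vertical axes, each starting at 0) in 3 FFA2 fl/fl (gray) and 4 Adipoq-F2-KO (orange) libraries, numbered by replicate, with mean and SD. The groups do not overlap for Slc16a1, the macrophage and endothelial sums and the mitochondrial share, while the erythroid sum overlaps and the adipocyte sum of Adipoq-F2-KO replicate 3 (45169 CPM) exceeds that of FFA2 fl/fl replicate 1 (44822 CPM).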

How the data were processed

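The deposited table holds raw counts: the authors used Trimmomatic for trimming, STAR for alignment to the mouse genome, featureCounts for counting by gene and DESeq2 for testing. Versions and counting options are not given in the sources used here. The submitters' processing notes name GRCm38 and mm10, but 0 of the 9 members have the coordinates of that build, so gene coordinates are given as deposited, with no build. Identifiers were matched to symbols through GENCODE and RefSeq tables of GRCm38 (52029 of 57010). The labels give 20 weeks of age, and the study's general methods a longer period.

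Genotype and replicate came from the sample titles. The main test was run in edgeR 4.0.16 (R 4.3.3) after filterByExpr and TMM, as a two-sided quasi-likelihood test on genotype alone, with Benjamini-Hochberg adjustment over 17039 genes. Log2 fold changes are edgeR's, and CPM and RPKM were computed from the deposited counts. Alternatives were a minimum of 1 count, DESeq2 size factors, DESeq2 1.42.0, voom of limma 3.58.1, halved counts, the replicate number as a term and single libraries left out. On simulated counts with 200 genes changed by a log2 fold change of 1, this test recovered 56.3% of them. Pairs of libraries differed by more than sampling noise, so none was counted as a duplicate.

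The members and lists were chosen with earlier results of these data known. Named genes are the members, Ffar2, Adipoq, in each pathway list those called, the 2 of smallest p and the most abundant, in each marker list the most abundant, and the 3 genes most correlated with Slc16a1 among those of at least 10 CPM.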

Additional observations from a re-analysis of the deposited data

Results flagged for a closer look

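Among 43 genes checked, 6 had a library far from the rest of the Adipoq-F2-KO group, by Dixon's criterion at 95%, which chance meets in about 1 in 20 groups. Among the members, Pcca was low in Adipoq-F2-KO replicate 4, at 110.2 CPM against 129.9 to 130.5 CPM in the other 3. Slc5a8 was above 0 in Adipoq-F2-KO replicate 3 only, at 0.0553 CPM, which is below the level that 0 counts allow. Adipoq-F2-KO replicate 4 was also low for Mmut, at 116.7 CPM, and for Crat, at 263.0 CPM. It had the lowest sum of adipocyte markers and the highest mitochondrial share of the 7 libraries, and the part of these in the low values was not tested.

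The other 2 are markers of tissue next to perigonadal fat. Prm2, a protamine of sperm, was at 54.1 CPM in Adipoq-F2-KO replicate 2, and the 6 germ cell markers summed to 135.8 CPM there. In Adipoq-F2-KO replicates 1, 3 and 4 they summed to 2.76, 12.4 and 2.71 CPM. All these sums were above those of FFA2 fl/fl, at most 2.52 CPM. DESeq2 called Prm1 and Prm2, and edgeR called neither. Lcn8, of epididymal epithelium, was at 9.04 CPM in Adipoq-F2-KO replicate 3, where the 6 epididymal markers summed to 19.4 CPM against at most 2.85 CPM in FFA2 fl/fl.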

How the results depend on the processing

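Of 112 alternatives run for the 8 tested members, 100 kept the direction and the side of the threshold. Only Slc16a1 was called in the main fit, and all 6 alternatives that lost a call were fits of Slc16a1. It stayed called in 2 of 7 fits with a library left out and in 6 of the 7 others. Over all genes, 173 of 17039 tested were called, 1403 of 28515 with a minimum of 1 count and 984 of 17039 by DESeq2. With a library left out, between 1 (without FFA2 fl/fl replicate 1) and 178 were called. With FFA2 fl/fl replicate 3 left out 5 were called, with Adipoq-F2-KO replicate 2 left out 11, with Adipoq-F2-KO replicate 3 left out 20 and with FFA2 fl/fl replicate 2 left out 41. Members called numbered 2 of 9 tested with a minimum of 1 count and 2 of 8 by DESeq2, both adding Slc16a3, and 0 to 1 with a library left out. These 2 settings called more genes over the whole table as well. Genes called in the pathway lists numbered 10 of 79 tested with a minimum of 1 count and 8 of 73 by DESeq2, the same 2 settings. They numbered 0 with DESeq2 size factors in edgeR and 0 to 2 with a library left out. With mitochondrial genes and the identifier of most uneven share left out, 1 was called.

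Samples sharing a replicate number did not deviate together (correlations 0.096, -0.029 and -0.049), so the numbers were not taken as pairs. With the replicate block 224 genes and 0 members were called, Slc16a1 having a log2 fold change of 0.56 (edgeR adjusted p = 0.0571), and Acss2 turned from -0.01 to 0.0048. The block called 2 pathway genes, Acacb and Slc16a11, in place of Acsm5 and Pdk2.

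With a library left out, signs turned for 4 named genes. Acss2 lay between -0.33 and 0.21, and was above 0 without FFA2 fl/fl replicate 1 and without Adipoq-F2-KO replicate 2 or 4. Acly lay between -0.57 and 0.23, Ldha between -0.12 and 0.0053 and S100a8 between -0.36 and 0.037. The causes were not tested. Depth limits Slc5a8, with 0 to 27 counts a library.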
